A study of Mus musculus with 17 samples.

Results

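The comparison described here set 9 lines of 32D cells carrying mutant FLT3 against 32D cells carrying wild-type FLT3 and grown without FLT3 ligand. It used 11 of the 17 arrays of the series, 9 with an internal tandem duplication (ITD) and 2 with the wild-type receptor, and these arrays were chosen by their sample titles. 32D is an immortalized mouse cell line that resembles a myeloblast and depends on interleukin-3 (IL-3). RNA was measured on exon arrays, and each of the 20227 gene values is a mean of log2 signals over the probe sets of a gene.

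The ITD group held 9 different mutants of human FLT3, each in a 32D line of its own, with 1 array per line. The lines are numbered 1 to 9 here. The wild-type group held 2 arrays of 32D cells with human wild-type FLT3, which the titles call biological replicates. The design text counts 2 lines with the wild-type receptor and the growth protocol speaks of 1, so whether the 2 arrays are independent lines or cultures of 1 line is unsettled, and p-values measure only the spread between these samples. All receptor genes were brought in with the retroviral vector pLXRN, and each transduced line was a population of many clones. The wild-type cells were selected with G418 and kept in mouse IL-3 at 1 ng/mL, whereas the ITD lines were moved to medium without IL-3 after transduction and grew without it. The mutation, the absence of IL-3 and the selection for growth without it cannot be told apart in this comparison. The other 6 arrays (2 of parental cells and 2 of cells with the empty vector, both in IL-3, and 2 of wild-type FLT3 cells with FLT3 ligand at 20 ng/mL) shared the spread of the fit, and their values are given beside those of the compared arrays. Whether these ligand cultures also held IL-3 is not stated in the protocol.

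The FLT3 protein is a tyrosine kinase receptor on early progenitors of the blood. Binding of its ligand brings receptors together and starts signalling through the RAS-ERK and PI3K pathways, whereas receptors with an ITD, a common mutation of acute myeloid leukaemia, signal without ligand and also activate STAT5. In progenitors of the kind 32D resembles, transcription factors such as PU.1 and the C/EBP family drive neutrophil and monocyte genes, and GATA factors drive erythroid, megakaryocyte, mast cell and eosinophil genes. The question the comparison addresses is how lines living on mutant FLT3 differ in these programmes from cells with the normal receptor.

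Of 20227 genes tested with limma, 1559 (7.71%) had an adjusted p (Benjamini-Hochberg) under 0.05 and are referred to as called. They comprised 661 genes higher with ITD (3.27% of those tested) and 898 lower (4.44%). Among the called genes 292 (1.44% of those tested) differed at least 2-fold, 133 higher and 159 lower. The median difference of all genes was -0.039 (log2), and the medians of the gene lists below are to be read against it. Their counts are to be read against the shares of 3.27% higher and 4.44% lower. The lists were written with earlier results of these data known. All 9 ITD arrays lay above both wild-type arrays in 1127 genes (5.57%) and below both in 1887 (9.33%), and 1449 genes (7.16%) were both called and without such overlap. Quantile normalization of the gene values, applied a second time, turned the split to 920 higher and 854 lower. The number of calls rested on both wild-type arrays. Without the first of them 308 genes were called and without the second 281, of which 291 and 273 were among the 1559. A gene described as called, or not called, without either wild-type array had that outcome whichever of the pair was left out. Without ITD line 7 the count rose to 2463.

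The myeloblast markers of the label were present on all 11 arrays. Mpo (myeloperoxidase) read between 10.25 and 11.48 on the ITD arrays and 11.53 and 11.43 on the wild-type arrays. Prtn3 (proteinase 3) read 11.31 to 12.43 against 11.38 and 11.40, and Ctsg (cathepsin G) read 11.92 to 12.21 against 12.27 and 12.23. The differences of these 3 primary granule genes were not called (adjusted p 0.26, 0.14 and 0.0845). The median signal of an array, over its probe sets, ranged from 4.63 to 4.69 on the 17 arrays, and precision is limited by how few arrays there were.

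Flt3 checked the labels only for the presence of an introduced receptor, because the ITD and the wild-type lines both carry one. Its value averages 19 probe sets designed for the mouse gene and lay between 7.08 and 7.32 on the ITD arrays (median 7.12) and was 6.73 and 6.79 with wild-type FLT3, against 5.12 to 5.37 on the parental and vector arrays. Flt3 was higher by 0.39 ± 0.09 (log2 difference ± SE of the fit here and below, adjusted p 0.0108) in the ITD lines. Without the first and the second wild-type array the adjusted p was 0.164 and 0.114. The 4 probe sets with the highest ITD means differed by 0.79, 0.54, 0.74 and 0.75, and their means in cells without an introduced receptor were 5.51, 3.77, 3.96 and 3.64.

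The largest differences fell into a few groups of genes. Genes of eosinophil and mast cell granules and of erythroid and megakaryocyte regulation rose in the ITD lines, and genes of mature neutrophils, stefins, C-type lectins and inflammatory mediators fell. Among the 20 largest rises without overlap between the groups, the 4 arrays with wild-type FLT3, with or without ligand, were the lowest of the 17 in 19 genes, all but Gp9. In 0 of the 20 were the 9 ITD arrays the highest of the 17. Among the 20 largest falls the wild-type receptor arrays were the highest of the 17 in 12 genes. The ITD arrays were the lowest of the 17 in 7 of the falls: Ankrd22, Trem1, Clec4a4, S100a9, C3, Hcar2 and Cd200r2. Ankrd22, Trem1 and S100a9 met both descriptions, and 4 falls met neither. These 40 genes were chosen for their difference between ITD and wild-type, so the counts describe them and are not independent of that choice. Without either wild-type array 16 of the 20 rises and 15 of the 20 falls were still called.

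Eosinophil granule genes showed some of the largest rises. Epx, the gene of eosinophil peroxidase, read between 9.94 and 12.56 on the ITD arrays (median 11.88) and 7.14 and 7.05 on the wild-type arrays. The groups were far apart, and the rise was 4.58 ± 0.45, or 23.9-fold (adjusted p 1.78e-05), with all 16 probe sets of Epx separating the groups. Parental and vector cells, at 12.78 and 11.37 on average, read near the ITD lines, and wild-type cells with ligand, at 7.64, read near those without. Prg2, the gene of major basic protein, read 7.96 to 11.71 with ITD (median 11.23) against 6.43 and 6.27, a rise of 4.30 ± 0.66 (adjusted p 0.000679). Line 5 was the lowest ITD line for Prg2, well below the other 8. Its paralog Prg3 rose by 3.38 ± 0.60 (adjusted p 0.00234), and Ear6, of the eosinophil-associated ribonucleases, rose by 2.46 ± 0.68 (adjusted p 0.0348) with overlapping groups. Of 9 measured eosinophil genes 4 rose and 0 fell, and 3 and 2 rose without the first and the second wild-type array. The list median of 0.088 was unsteady: it was -0.0048 without line 7, 0.19 and 0.16 without the first and the second wild-type array, and 1.90 over the 7 genes left when only probe sets above the 75th percentile of all probe set means were kept. Ear6 was called in 7 of the 9 fits that left out an ITD line. Prg3 was not called without the second wild-type array (adjusted p 0.0841), and Ear6 without either (0.22 and 0.278). In RNA of whole cultures, fewer cells with a gene's RNA and less of it per cell cannot be told apart.

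**Figure D1:**
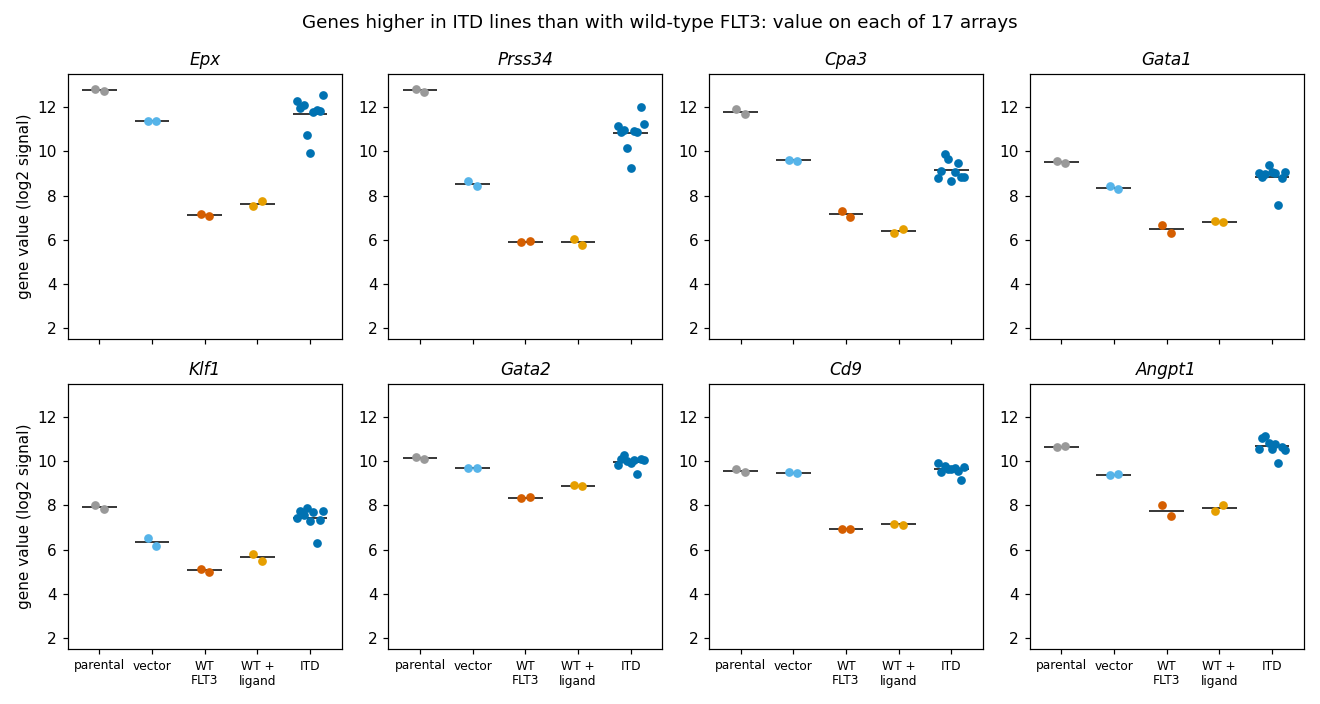
Gene values (log2 signal) on each of the 17 arrays for 8 genes that rose, by group. Points are arrays and black lines are group means. The 4 arrays with wild-type FLT3 (WT), with or without ligand, sit below the 9 ITD arrays in every panel, and the parental and vector arrays lie near or above the ITD level for Epx and Gata2. The parental and vector means of Cd9 also lie within the ITD range, and the parental means of Gata1 and Klf1 lie above it.

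Several genes of mast cells and basophils rose, most of them proteases, while others fell or were not called. Prss34, the gene of the protease mMCP-11 of mouse basophils, had the largest rise of the comparison. It read 9.24 to 11.99 on the ITD arrays (median 10.92) and 5.88 and 5.93 on the wild-type arrays. The difference of 4.93 ± 0.42 (30.4-fold, adjusted p 6.26e-06) held in all 9 of its probe sets. Cpa3, mast cell carboxypeptidase, read 8.68 to 9.89 (median 9.08) against 7.32 and 7.01, a rise of 1.99 ± 0.25 (adjusted p 0.00015). Gzmb, the gene of granzyme B, rose by 2.62 ± 0.56 (adjusted p 0.00849) and the tryptase-like gene Prss28 by 2.35 ± 0.34 (adjusted p 0.000428). Slc18a2, the vesicular transporter that loads histamine and other amines, rose by 0.76 ± 0.12 (adjusted p 0.000956).

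By contrast, the basophil protease gene Mcpt8 read 8.70 to 10.98 against 9.81 and 9.84 (difference 0.30 ± 0.38, adjusted p 0.713). Fcer1a, the IgE-binding chain of the high-affinity IgE receptor, ranged from 7.31 to 11.97 among the ITD lines and was 9.18 and 9.08 with wild-type FLT3, and its difference of 1.09 ± 0.86 was not called (adjusted p 0.51). The ITD lines lay on both sides of the wild-type arrays for these 2 genes. Of 22 measured mast cell and basophil genes 5 rose and 2 fell (median 0.11, and 0.071 without the second wild-type array). The falls were Csf1, the gene of macrophage colony-stimulating factor, and Fcer1g, the gene of the shared Fc receptor signalling chain, which fell by 0.57. The mean of the list lay between 7.73 and 8.23 on the ITD arrays and was 7.39 and 7.51 with wild-type FLT3. It was 7.33 and 7.35 in wild-type cells with ligand and 8.11 on both vector arrays. In parental cells it was 8.80 and 8.88, above every ITD array. Gzmb was not called without the first or the second wild-type array (adjusted p 0.107 and 0.138), nor was Csf1 (0.254 and 0.222), and Fcer1g was not called without the first (0.184).

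Regulators and surface proteins of the erythroid and megakaryocyte lineages rose, 9 of 20 measured and 0 in the other direction, with a median of 0.52. Gata1, the GATA factor of these lineages and of eosinophils and mast cells, read 7.55 to 9.38 on the ITD arrays (median 9.01) and 6.68 and 6.32 with wild-type FLT3. It rose by 2.35 ± 0.29 (5.10-fold, adjusted p 0.00014), and line 7 stood below the other 8 ITD lines without reaching the wild-type arrays. Klf1, the erythroid Krüppel-like factor, read 6.30 to 7.89 (median 7.58) against 5.11 and 5.00, a rise of 2.39 ± 0.28 (adjusted p 8.31e-05). Zfpm1, which encodes the GATA1 cofactor FOG1, rose by 1.82 ± 0.25 (adjusted p 0.000354), and Gfi1b, a repressor needed for both lineages, rose by 1.90 ± 0.25 (adjusted p 0.00023).

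Among surface proteins of megakaryocytes, Gp9, a subunit of the von Willebrand factor receptor, read 6.94 to 9.04 (median 8.29) against 5.99 and 6.01. It rose by 2.25 ± 0.35 (adjusted p 0.000868). Itga2b, integrin alpha-IIb, rose by 1.46 ± 0.19 (adjusted p 0.000188), with 38 of its 39 probe sets separating the groups. Tal1, a basic helix-loop-helix factor, rose by 0.58 ± 0.12, Hemgn, a nuclear protein of erythroid cells, by 0.87 ± 0.17, and Epor, the erythropoietin receptor, by 0.63 ± 0.18 (adjusted p 0.00719, 0.00517 and 0.0415). These 3 were not called when a wild-type array was left out (adjusted p 0.0949 to 0.422), nor was Epor in 1 of the 9 fits without an ITD line. Of the list, 6 of the 9 rises were called without the first array and 6 without the second. Gata1 and Klf1 means were 9.51 and 7.93 in parental cells, 8.35 and 6.34 with the vector, and 6.81 and 5.64 in wild-type cells with ligand.

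The GATA factors among the rises give reason to show stretches of promoter sequence of other rises. GATA factors recognise GATA within longer sites, and AGATAA or TGATAA, or their complements TTATCT and TTATCA, were searched in RefSeq promoter sequences (GRCm38.p6, 250 bases before to 50 after a start). The letters were found in 5 of the 18 largest rises with a promoter sequence, in 2 of the 16 largest falls, and in 18.6% of all 32851 promoters. A gene was counted if any of its promoters matched, whereas the last share counts each promoter by itself, so the units differ. Capitals mark the match in 3 of the rises, which lie at chr17:25298336-25298395 (plus strand) for Prss34, chr3:20242195-20242254 (minus strand) for Cpa3 and chr8:84901875-84901934 (plus strand) for Klf1. A match is a description of the letters and not of a bound site.
Prss34: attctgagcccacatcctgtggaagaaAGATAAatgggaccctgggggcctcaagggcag
Cpa3: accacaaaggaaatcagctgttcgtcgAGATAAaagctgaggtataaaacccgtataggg
Klf1: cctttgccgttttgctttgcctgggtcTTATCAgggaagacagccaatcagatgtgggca

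Transcription factors of uncommitted progenitors rose by smaller amounts. Gata2, the GATA factor of stem cells, progenitors and mast cells, read 9.44 to 10.28 on the ITD arrays (median 10.05) and 8.32 and 8.38 with wild-type FLT3. It rose by 1.63 ± 0.14 (adjusted p 7.05e-06). Myb, which keeps progenitors dividing, read 10.64 to 11.31 (median 11.13) against 10.08 and 9.94 and rose by 1.00 ± 0.16 (adjusted p 0.000994). Myc, the growth regulator, rose by 0.55 ± 0.11 (adjusted p 0.00551), Runx1 by 0.84 ± 0.21 with overlapping groups (adjusted p 0.0228), Meis1 by 0.87 ± 0.26 and Fli1 by 0.38 ± 0.10 (adjusted p 0.0322). Ikzf1, the lymphoid and myeloid regulator Ikaros, fell by 0.68 ± 0.14 (adjusted p 0.00604).

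In all, 6 of 18 progenitor regulators rose and 1 fell (median 0.24). The mean of the list lay between 8.40 and 8.69 on the ITD arrays and was 8.29 on both wild-type arrays. It was 8.58 and 8.59 in wild-type cells with ligand, 8.58 on both vector arrays and 8.46 and 8.49 in parental cells. Without the first wild-type array 2 rose and 0 fell, and without the second 1 rose and 1 fell. Myb was not called without the second (adjusted p 0.0503), Ikzf1 without the first (0.195), and Myc, Runx1, Meis1 and Fli1 without either (0.0673 to 0.401). Meis1 was called in 3 and Fli1 in 8 of the 9 fits that left out an ITD line. Kit, the stem cell factor receptor, read 5.43 to 5.88 with ITD and 5.62 and 5.82 with wild-type FLT3, low on the array in both groups.

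Cdk6, a kinase that pairs with D cyclins at the start of the cell cycle and holds back myeloid differentiation, read 10.75 to 11.63 on the ITD arrays (median 11.48) and 9.96 and 9.86 with wild-type FLT3. Its rise of 1.43 ± 0.17 (adjusted p 9.18e-05) held in all 28 probe sets, and it was the 1 called gene among 12 D cyclins, their kinases and the kinase inhibitors. Of 21 other cell cycle genes 4 rose and 0 fell (median 0.23): Ccne2 (cyclin E2) by 0.79 ± 0.23, Mki67 (the proliferation antigen Ki-67) by 0.57 ± 0.15, Aurkb (aurora kinase B) by 0.46 ± 0.13 and Ccnb2 (cyclin B2) by 0.39 ± 0.11, with adjusted p between 0.0315 and 0.043. Of these, Ccnb2 had groups that did not overlap. The mean of the list lay between 9.51 and 10.07 on the ITD arrays and was 9.60 and 9.66 with wild-type FLT3. It was 10.00 and 10.06 in wild-type cells with ligand, 9.47 and 9.49 with the vector and 9.62 and 9.66 in parental cells. The count of 4 became 0 without either wild-type array, 0 in the fit of the 11 arrays alone, 1 without line 2 and 7 without line 7.

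Of 19 measured regulators of granulocyte and monocyte differentiation 5 fell, 0 rose and 14 were not called, against 4.44% lower among all genes. After a second quantile normalization, or without ITD line 1 or line 7, 1 was called higher. The list median was -0.16, and -0.25 and -0.084 without the first and the second wild-type array. Id2, an inhibitor of basic helix-loop-helix factors, read 8.28 to 9.46 on the ITD arrays (median 8.89) and 10.17 and 9.99 with wild-type FLT3. The groups did not overlap, and it fell by 1.26 ± 0.23 (adjusted p 0.00278). Gfi1, a repressor needed for neutrophils, read 7.32 to 8.43 (median 7.86) against 8.80 and 8.83 and fell by 0.99 ± 0.19 (adjusted p 0.00476). Cebpd and Cebpb, of the C/EBP family, fell by 1.00 ± 0.21 and fell by 0.66 ± 0.14 (adjusted p 0.00768 and 0.00707). Spi1, which encodes PU.1, read 8.85 to 9.29 (median 9.18) against 9.68 and 9.80 and fell by 0.59 ± 0.11 (adjusted p 0.00265). Cebpb, Cebpd and Gfi1 were not called when either wild-type array was left out (adjusted p 0.0843 to 0.123), Id2 without the first (0.0847) and Spi1 without the second (0.101). The Gfi1 difference runs opposite to that of its paralog Gfi1b.

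Genes of late granules and mature neutrophils fell, 13 of 24 measured and 0 in the other direction, with a median of -0.79. S100a9, a subunit of calprotectin, read 9.04 to 10.93 on the ITD arrays (median 10.31) and 12.96 and 12.83 with wild-type FLT3. It fell by 2.70 ± 0.35 (6.50-fold, adjusted p 0.00022), and the parental and vector means of 11.89 and 12.34 also lay above every ITD array. Its partner S100a8 fell by 1.86 ± 0.40 (adjusted p 0.00883). Slpi, the secretory leukocyte protease inhibitor, read 6.99 to 8.58 (median 7.95) against 9.81 and 9.76 and fell by 1.89 ± 0.26 (adjusted p 0.000321). Lcn2, the iron-siderophore binder of specific granules, fell by 1.70 ± 0.31 (adjusted p 0.00284), Chil1, a chitinase-like protein, fell by 1.49 ± 0.22 (adjusted p 0.000571), and Hp, haptoglobin, fell by 1.47 ± 0.31 (adjusted p 0.00827).

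Csf3r, the receptor for the neutrophil growth factor G-CSF, read 5.88 to 7.51 (median 6.93) against 8.07 and 7.87 and fell by 1.09 ± 0.29 (adjusted p 0.032). Ltf, lactoferrin of specific granules, read 6.69 to 9.51 against 9.78 and 9.75, so the groups did not overlap, but its difference of -1.31 ± 0.47 was not called (adjusted p 0.106). In the primary granule list Lyz2 and Lyz1, the lysozymes, fell by 0.93 ± 0.18 and fell by 0.70 ± 0.13 (adjusted p 0.00525 and 0.00377), and Calr, a chaperone for myeloperoxidase, rose by 0.50 ± 0.11 (adjusted p 0.0132), with 10 genes measured and a median of -0.0007, which took either sign when single arrays were left out. Of the 13 late granule falls 6 were called without the first wild-type array and 5 without the second. S100a8, Lcn2, Hp, Csf3r, Lyz2 and Calr were not called without either (adjusted p 0.0631 to 0.268), and Lyz1 was not called without the second (0.119).

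**Figure D2:**
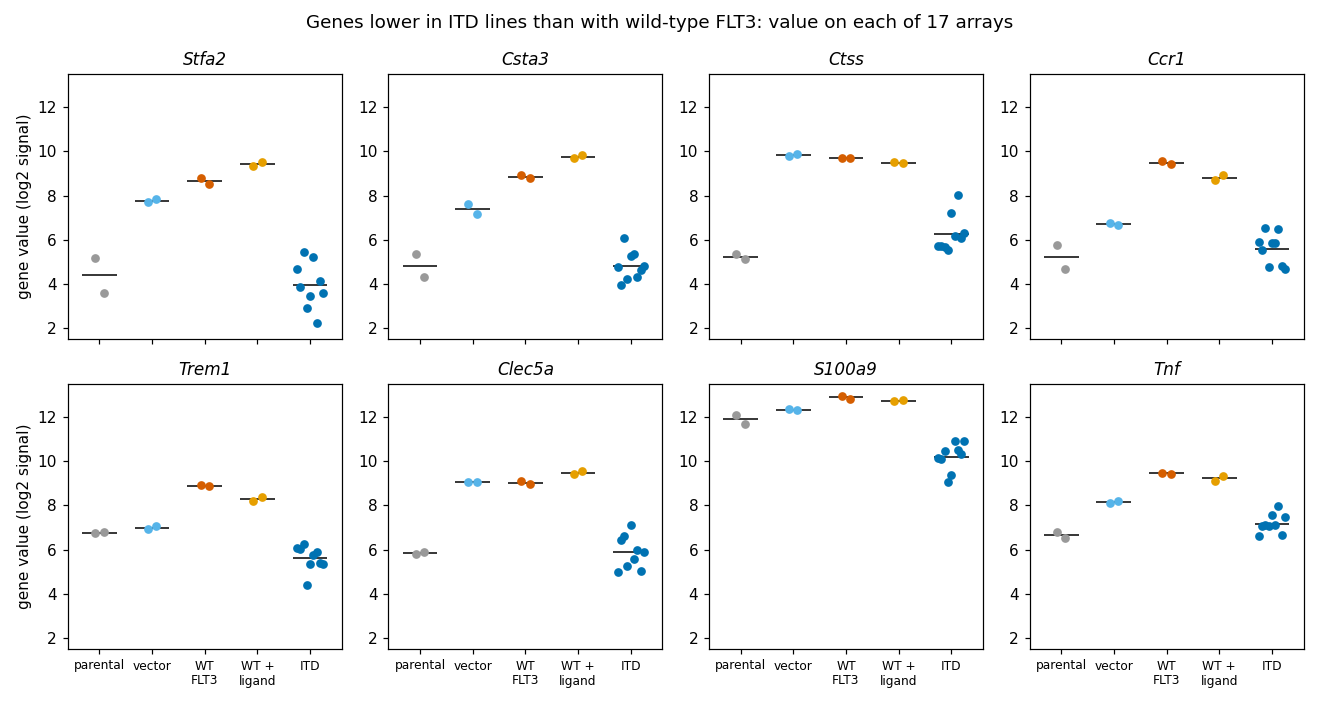
Gene values (log2 signal) on each of the 17 arrays for 8 genes that fell, by group. Points are arrays and black lines are group means. All 9 ITD arrays sit below both wild-type (WT) arrays in every panel. For S100a9 and Trem1 the ITD arrays are the lowest of the 17, whereas for Ctss and Clec5a the parental arrays lie among or below them. The parental means of Csta3 and Ccr1 also lie within the ITD range.

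Stefins, small inhibitors of cysteine cathepsins that mouse neutrophils make in quantity, had the largest falls of all. Stfa2 read 2.20 to 5.46 on the ITD arrays (median 3.83) and 8.81 and 8.50 with wild-type FLT3, and Cstdc4 read 4.28 to 7.49 (median 6.14) against 10.98 and 10.82. Stfa2 fell by 4.72 ± 0.62 (26.3-fold) and Cstdc4 fell by 4.66 ± 0.62 (25.3-fold), both at an adjusted p of 0.00023 and each from 1 probe set. Csta3, with 4 probe sets, read 3.93 to 6.08 (median 4.76) against 8.93 and 8.80 and fell by 4.05 ± 0.40 (adjusted p 1.78e-05). Csta2 fell by 3.40 ± 0.42 (adjusted p 0.000128), Stfa2l1 fell by 1.85 ± 0.29 (adjusted p 0.000845) and Csta1 fell by 1.16 ± 0.24 (adjusted p 0.00688).

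The ITD means of Stfa2, 3.94, and Csta1, 4.48, lay under 4.599, the level used to set dim probe sets aside, so these falls reach the dim end of the array. Of 8 measured genes of the stefin and cystatin list, fixed without Cstdc4, 6 fell and 0 rose (median -1.50). Cstb, stefin B, which lies outside the cluster, fell by 0.99 ± 0.19 (adjusted p 0.00361), and Cst3 and Cst7 differed by 0.27 each (adjusted p 0.232 and 0.614). Csta1 was not called without the second wild-type array (adjusted p 0.34) and Cstb without either (0.0981 and 0.054). Parental and vector means of Csta3 were 4.82 and 7.38, and wild-type cells with ligand averaged 9.76.

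The 6 stefin genes other than Cstb neighbour each other on chromosome 16. In the RefSeq table they lie in a run of 12 protein-coding genes, of which these 6 are described here. They are near-identical copies, so a probe set of 1 may also read the RNA of another, and the differences of single members are uncertain. Promoters of 4 of these genes are shown because the 6 members moved together and these 4 share sequence near the start. The longest run common to the RefSeq promoters (GRCm38.p6) of Stfa2, Csta3, Cstdc4 and Stfa2l1 is 13 bases, ACCTTTAAAACCC, in capitals. It stands in 9 of the 11 promoters of the cluster in the table, in 0 promoters outside it, and so in 0.0274% of all 32851. Of the 6 genes described, 4 showed the run. Csta1 and Csta2, which also fell, were not among them, and whether the run has a part in the falls was not tested. The 4 stretches lie at chr16:36408359-36408419 (minus strand) for Stfa2, and on the plus strand at chr16:36210299-36210359 for Csta3, chr16:36184156-36184216 for Cstdc4 and chr16:36156751-36156811 for Stfa2l1.
Stfa2: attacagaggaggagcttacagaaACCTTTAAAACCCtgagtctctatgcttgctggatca
Csta3: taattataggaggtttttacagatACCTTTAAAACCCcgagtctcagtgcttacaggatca
Cstdc4: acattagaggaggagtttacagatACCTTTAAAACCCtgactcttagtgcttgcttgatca
Stfa2l1: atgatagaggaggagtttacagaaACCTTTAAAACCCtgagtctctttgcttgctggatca

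Cathepsins, the proteases that stefins bind, fell in 4 of 11 measured genes and rose in 0 (median -0.30). Ctss, cathepsin S of antigen-presenting cells, read 5.54 to 8.02 on the ITD arrays (median 6.07) and 9.69 on both wild-type arrays. It fell by 3.43 ± 0.46 (10.8-fold, adjusted p 0.000249), and the parental arrays, at 5.34 and 5.11, were lower than any ITD array. Ctsd, cathepsin D of lysosomes, fell by 0.54 ± 0.12 (adjusted p 0.0103), and the lysosomal Ctsb and Ctsz fell by 0.37 and fell by 0.30. Of the 4, Ctss was called without either wild-type array, and Ctsd, Ctsb and Ctsz were not called without the first (adjusted p 0.14, 0.268 and 0.173) or the second (0.133, 0.22 and 0.375).

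Monocyte and macrophage genes fell in 5 of 19 and rose in 0 (median -0.48), and the count was 8 without line 7. Cd14, the co-receptor for bacterial lipopolysaccharide, read 4.40 to 5.13 (median 4.70) against 6.57 and 6.38 and fell by 1.69 ± 0.19 (adjusted p 6.79e-05). Adgre1, a surface receptor that marks mouse macrophages, read 7.19 to 9.16 (median 8.86) against 10.32 and 10.28 and fell by 1.70 ± 0.35 (adjusted p 0.00639), with all 26 probe sets separating the groups. Cd74, the invariant chain of MHC class II, read 6.53 to 9.95 (median 6.93) against 9.76 and 9.70. Its fall of 2.38 ± 0.59 (adjusted p 0.0206) was not shared by line 7, which at 9.95 lay above both wild-type arrays.

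Of 9 measured MHC class II genes Cd74 and H2-DMb1, a chain of the peptide-loading protein H2-M, fell. H2-DMb1 fell by 0.99 ± 0.14 (adjusted p 0.000314), and H2-Ab1, a chain of the class II molecule itself, read 6.30 to 7.04 against 6.56 and 6.72 (adjusted p 0.914). Without a wild-type array 1 of the 5 monocyte and macrophage falls was called, Cd14. Adgre1 gave adjusted p of 0.106 and 0.105 and Cd74 of 0.187 and 0.199.

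C-type lectins and paired receptors, which let myeloid cells sense microbes and damaged cells, fell in 16 of 26 measured genes and rose in 0 (median -0.93). Trem1, an amplifier of inflammatory signalling, read 4.40 to 6.27 on the ITD arrays (median 5.74) and 8.92 and 8.86 with wild-type FLT3. It fell by 3.29 ± 0.32 (9.77-fold, adjusted p 1.58e-05). Clec5a, a receptor that signals through the adaptor DAP12, read 4.96 to 7.12 (median 5.89) against 9.11 and 8.95 and fell by 3.16 ± 0.41 (adjusted p 0.000209). All probe sets of both genes separated the groups. Tyrobp, the gene of DAP12 itself, read 9.02 to 9.83 (median 9.74) against 10.58 and 10.68 and fell by 0.97 ± 0.15 (adjusted p 0.000994).

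The receptors Clec4e (Mincle) and Clec4d, which bind mycobacterial glycolipids, fell by 1.99 ± 0.39 and fell by 1.81 ± 0.35 (adjusted p 0.00497 and 0.00433). Trem3 fell by 1.90 ± 0.29 (adjusted p 0.000679), and Clec4a4, with 1 probe set, fell by 3.02 ± 0.32 (adjusted p 3.27e-05) to an ITD mean of 3.71. Pilrb1, an activating paired receptor, fell by 1.94 ± 0.48 (adjusted p 0.0192) on 1 probe set, with line 4 at 7.07 below the other ITD lines. Without the first wild-type array 7 of the 16 falls were called and without the second 8. Clec4e, Clec4d and Pilrb1 were not called without either (adjusted p 0.0659 to 0.223), and Trem1, Clec5a, Trem3, Tyrobp and Clec4a4 were called in both cases.

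Receptors that guide myeloid cells to chemokines and other attractants fell in 4 of 17 measured genes and rose in 1. The median of -0.18 became -0.09 without the first wild-type array and -0.41 without the second, and 3 falls and 0 rises were called in either case. Ccr1, a receptor for Ccl3 and Ccl5, read 4.65 to 6.54 on the ITD arrays (median 5.85) and 9.57 and 9.41 with wild-type FLT3, and it fell by 3.89 ± 0.43 (14.8-fold, adjusted p 4.95e-05). Vector cells averaged 6.70 and parental cells 5.23 for Ccr1, and wild-type cells with ligand 8.81. P2ry13, a receptor for ADP, fell by 2.07 ± 0.23 (adjusted p 4.95e-05), and C5ar1, the receptor for complement fragment C5a, read 5.24 to 5.81 (median 5.66) against 6.91 and 6.93 and fell by 1.33 ± 0.14 (adjusted p 3.05e-05). Cxcr4, which holds progenitors in bone marrow, read 9.87 to 10.57 (median 10.39) against 9.62 and 9.53 and rose by 0.72 ± 0.16 (adjusted p 0.0114). Ccr1, P2ry13 and C5ar1 were also called without either wild-type array, whereas Cxcr4 was not (adjusted p 0.109 and 0.185).

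Secreted mediators fell as well. Of 19 chemokines and cytokines 7 fell and 1 rose (median -0.29, and -0.16 with the 75th-percentile filter on dim probe sets), and 2 falls and 0 rises were called without either wild-type array. Tnf, tumour necrosis factor, read 6.63 to 7.97 on the ITD arrays (median 7.10) and 9.46 and 9.43 with wild-type FLT3 and fell by 2.27 ± 0.25 (adjusted p 4.95e-05). Its receptor Tnfrsf1b read 7.11 to 7.79 (median 7.67) against 8.99 and 8.98 and fell by 1.51 ± 0.18 (adjusted p 0.000105). Ccl5, a ligand of Ccr1, fell by 2.09 ± 0.20 (adjusted p 1.38e-05), and Ccl3, another, read 6.59 to 9.72 (median 7.75) against 10.10 and 10.03 and fell by 2.21 ± 0.50 (adjusted p 0.0124). Cxcl2, an attractant of neutrophils, fell by 1.75 ± 0.42, Csf1 fell by 1.68 ± 0.46 and Ccl4 fell by 1.03 ± 0.26 (adjusted p 0.0165, 0.0328 and 0.021). For Ccl4 line 7 overlapped the wild-type arrays. Tgfb1, transforming growth factor beta, rose by 0.59 ± 0.13 (adjusted p 0.00992). Tnf and Ccl5 were called without either wild-type array, and Ccl3, Cxcl2, Csf1, Ccl4 and Tgfb1 were not (adjusted p 0.0985 to 0.304).

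Among 19 secreted and surface growth factors 6 fell and 1 rose (median -0.22). Without the first wild-type array 3 fell (median -0.39) and without the second 4 fell (median -0.14), and the 1 rise stayed. The rise was Angpt1, angiopoietin-1, a ligand of the receptor Tie2. It read 9.94 to 11.13 on the ITD arrays (median 10.66) and 8.01 and 7.50 with wild-type FLT3 and rose by 2.92 ± 0.22 (7.58-fold, adjusted p 1.24e-06), in all 17 probe sets. Ccn3, a matricellular protein, read 4.49 to 5.70 (median 5.03) against 7.76 and 7.74 and fell by 2.69 ± 0.21 (adjusted p 2.38e-06). Wild-type cells with ligand averaged 8.23 for Ccn3, and parental and vector cells averaged 4.90 and 5.31. Tnfsf9, the ligand of 4-1BB, fell by 1.46 ± 0.13 (adjusted p 7.05e-06), and its receptor Tnfrsf9 fell by 1.48 ± 0.18 (adjusted p 0.000128). Thbs1, thrombospondin-1, fell by 1.66 ± 0.29 (adjusted p 0.00205), and without the first wild-type array it was not called (0.0709).

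In the list of 22 cytokine receptors 3 rose and 5 fell (median -0.13, but 0.018 with the median of the probe sets in place of the mean and 0.011 without the second wild-type array). The rises were Flt3, whose value includes signal of the introduced receptor, Epor and Csf2rb2, a beta chain of the mouse IL-3 receptor. Csf2rb2 read 9.39 to 10.87 (median 10.20) against 9.20 and 8.91 and rose by 1.16 ± 0.23 (adjusted p 0.0056). The common beta chain gene Csf2rb, a near-identical copy with which its probe sets may share signal, differed by 0.77 ± 0.30 (adjusted p 0.131), and Il3ra, the alpha chain, by 0.16 ± 0.14 (adjusted p 0.553). Il2rb, the IL-2 receptor beta chain, read 5.37 to 6.17 (median 5.97) against 7.13 and 7.06 and fell by 1.29 ± 0.18 (adjusted p 0.000291). Il2ra, the alpha chain, spread from 5.32 to 10.76 among the ITD lines, on both sides of the wild-type arrays at 8.89 and 8.71 (adjusted p 0.504). Csf2rb2 was not called without the first or the second wild-type array (adjusted p 0.0573 and 0.153), and without a wild-type array 0 receptor rises and 3 falls were called.

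Readouts of the pathways downstream of FLT3 were mixed. Egr1, an immediate early gene of the ERK pathway, read 7.35 to 8.11 on the ITD arrays (median 7.90) and 6.38 and 6.71 with wild-type FLT3. It rose by 1.28 ± 0.15 (adjusted p 0.000103). Fosb, another immediate early gene, fell by 0.68 ± 0.11 (adjusted p 0.00148), and Fos read 5.84 to 8.28 against 7.13 and 7.04 (adjusted p 0.745). Of 17 immediate early genes 1 rose and 2 fell (median -0.24), with 1 fall without either wild-type array, 4 without line 7 and 0 with each line counted once. In each of these fits 1 gene rose.

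Of 18 genes of ERK feedback, phosphatases and inhibitors that ERK signalling induces, 1 rose and 3 fell (median -0.11, and -0.068 without line 1). Dusp4, a nuclear MAP kinase phosphatase, rose by 0.93 ± 0.26 (adjusted p 0.0381). Dusp2, Ier3 and Dusp1 fell by 1.49 ± 0.38, fell by 1.10 ± 0.20 and fell by 0.96 ± 0.19 (adjusted p 0.0233, 0.00322 and 0.00534), with line 7 above the wild-type arrays for Dusp2. Dusp6, the cytosolic ERK phosphatase, read 9.72 to 10.41 against 10.29 and 10.28, a difference of -0.13 ± 0.15 (adjusted p 0.672), and parental and vector means were 8.71 and 8.86. Etv5, an ERK-induced ETS factor, likewise read 7.18 to 7.75 against 7.56 and 7.39 (difference -0.08 ± 0.14, adjusted p 0.814), with parental and vector means of 5.40 and 5.95. All 4 calls of the feedback list were lost without either wild-type array (adjusted p 0.0582 to 0.351), and Dusp4 was called in 7 of the 9 fits that left out an ITD line.

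STAT5 targets gave 0 calls among 17 measured genes in the limma fit, with a median of -0.11. The median was 0.054 with the median of the probe sets in place of the mean, and -0.03 and -0.044 without the first and the second wild-type array. Cish, the cytokine-inducible feedback inhibitor, read 8.09 to 9.58 against 9.25 and 9.14 (difference -0.03 ± 0.25, adjusted p 0.972), and its sign turned without line 4 (0.11) and without the first wild-type array (0.029). Socs2 differed by -0.25 ± 0.13 (adjusted p 0.292) and the kinase gene Pim1 by -0.11 ± 0.10 (adjusted p 0.588). The wild-type cells received IL-3, which also activates STAT5, so receptor and cytokine cannot be told apart here. At an unadjusted p under 0.05 there were 2 genes of the list. Without line 1 or line 7, or after a second quantile normalization, 1 of the 17 was called higher.

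Adaptors and phosphatases of receptor signalling rose in 4 and fell in 2 of 24 measured genes (median 0.069, against 0.15 and 0.029 without the first and the second wild-type array and 0.22 with the median of the probe sets). Grb2, the adaptor that links receptors to RAS, read 9.84 to 10.78 (median 10.25) against 9.48 and 9.27 and rose by 0.87 ± 0.20 (adjusted p 0.0125). Gab3, a docking protein, rose by 0.93 ± 0.22, Dok2, a docking protein that restrains kinase signalling, by 0.77 ± 0.17, and Ptprj, a phosphatase that acts on FLT3, by 0.61 ± 0.11 (adjusted p 0.0141, 0.00983 and 0.0035). Ptprc, the leukocyte phosphatase CD45, fell by 0.48 ± 0.12 (adjusted p 0.023). Line 7 was the lowest ITD line for Gab3. The mean of the list lay between 8.53 and 8.91 on the ITD arrays and was 8.54 and 8.64 with wild-type FLT3. It was 8.63 and 8.64 in wild-type cells with ligand, 8.71 and 8.72 with the vector and 8.95 and 9.03 in parental cells. Without the first wild-type array Ptprj was the 1 gene of the 6 still called (adjusted p 0.0481), and without the second 0 were (0.11 for Ptprj).

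Integrins and tetraspanins, which attach cells to matrix and organise membranes, rose in 8 and fell in 2 of 25 measured genes (median 0.17, and 0.31 with the 75th-percentile filter on dim probe sets). The mean of the list lay between 8.61 and 8.86 on the ITD arrays and was 8.41 and 8.48 with wild-type FLT3. It was 8.49 and 8.51 in wild-type cells with ligand, 8.79 and 8.86 with the vector and 9.07 and 9.08 in parental cells. Cd9, a tetraspanin of stem cells, megakaryocytes, eosinophils and mast cells, read 9.14 to 9.92 on the ITD arrays (median 9.66) and 6.92 and 6.95 with wild-type FLT3. It rose by 2.69 ± 0.14 (6.46-fold) and had an adjusted p of 1.53e-08. Parental and vector means of Cd9 were 9.57 and 9.47, close to the ITD lines, and wild-type cells with ligand averaged 7.14, close to those without. Itga6, a laminin receptor chain, rose by 1.11 ± 0.14 (adjusted p 0.000118), and Itga4, the alpha chain of VLA-4, rose by 1.03 ± 0.17 (adjusted p 0.0015). Itgam, the myeloid integrin CD11b, read 9.32 to 10.24 (median 10.10) against 10.75 and 10.73 and fell by 0.86 ± 0.23 (adjusted p 0.0291), and Itgb7, a lymphocyte and mast cell integrin, fell by 0.64 ± 0.11 (adjusted p 0.0013). Without the first wild-type array 4 of the 8 rises and 0 of the falls were called, and without the second 3 and 1. Itga4 gave an adjusted p of 0.0638 without the second, Itgb7 of 0.065 without the first, and Itgam of 0.221 and 0.231.

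Genes of eicosanoid synthesis, a list that also holds the receptor gene Ptger4, moved in both directions. Of 16 measured 3 rose and 1 fell, with a median of -0.016, which took either sign without a wild-type array. Alox5, 5-lipoxygenase, which starts leukotriene synthesis, read 6.12 to 8.95 on the ITD arrays (median 7.65) and 5.34 and 5.55 with wild-type FLT3 and rose by 2.27 ± 0.49 (adjusted p 0.00842). Ltc4s, which makes leukotriene C4, read 7.31 to 8.06 (median 7.60) against 8.93 and 9.01 and fell by 1.35 ± 0.14 (adjusted p 3.25e-05). Ptgs1, cyclooxygenase-1, rose by 0.64 ± 0.15 (adjusted p 0.0168) and Ptger4, a prostaglandin E2 receptor, by 0.75 ± 0.11 (adjusted p 0.000399). Ltc4s and Ptger4 were called without either wild-type array, and Alox5 and Ptgs1 were not (adjusted p 0.106 to 0.182).

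**Figure D3:**
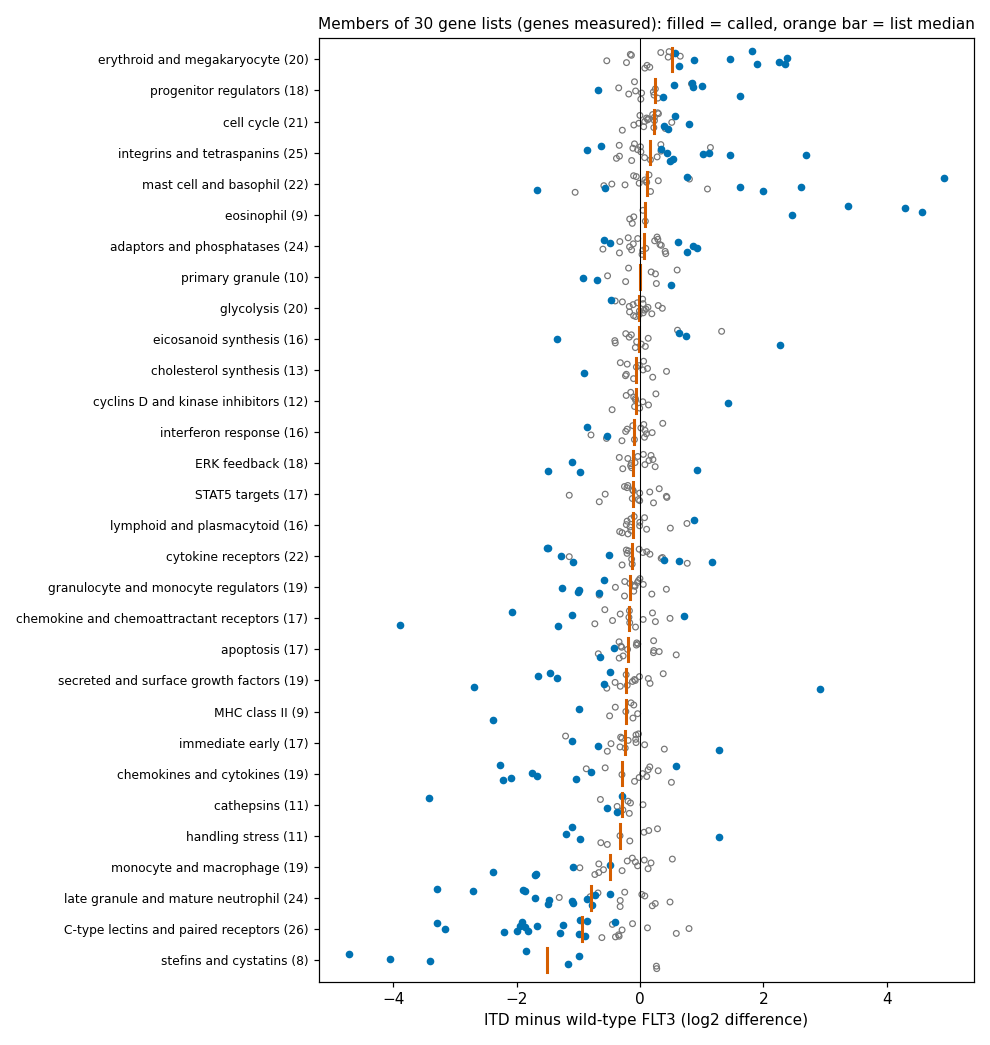
Log2 difference of each measured member of 30 gene lists, ITD minus wild-type FLT3, with lists ordered by their median (orange bars) and the number measured in brackets. Filled points are called genes. Stefins, C-type lectins and late granule genes have the lowest medians, -1.50, -0.93 and -0.79, and erythroid and megakaryocyte genes the highest, 0.52.

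Other programmes showed few calls, at shares nearer the 7.71% of all genes. Of 17 apoptosis genes 2 fell: Bak1, a pore-forming killer protein, fell by 0.65 ± 0.11, and Birc3, an inhibitor of apoptosis, fell by 0.42 ± 0.12 (adjusted p 0.00119 and 0.043). Bcl2, the survival gene, read 9.84 to 10.77 (median 10.55) against 9.89 and 9.74, a difference of 0.59 ± 0.20 that was not called (adjusted p 0.0769). Of 16 interferon response genes 2 fell, among them Irf1, which fell by 0.53 ± 0.10 (adjusted p 0.00334). Of 13 cholesterol synthesis genes Hmgcs1, the enzyme before the rate-limiting step, fell by 0.90 ± 0.14 (adjusted p 0.00102), and of 20 glycolysis genes the glucose transporter gene Slc2a3 fell by 0.47 ± 0.12 (adjusted p 0.0263). Hmgcs1 was called without either wild-type array. Bak1 was not called without the first (adjusted p 0.0714), and Birc3, Irf1 and Slc2a3 without either (0.054 to 0.328). Birc3 was called in 5 of the 9 fits that left out an ITD line.

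Markers of other lineages and of handling were followed across the same arrays. Of 16 lymphoid and plasmacytoid markers the cytotoxic granule gene Nkg7 rose by 0.88 ± 0.23 with overlapping groups (adjusted p 0.0281), and 0 fell. The mean of that list lay between 6.27 and 6.54 on the ITD arrays and was 6.35 and 6.45 with wild-type FLT3. Of 11 genes that respond to handling stress 1 rose and 3 fell (median -0.32, -0.51 without line 4, -0.21 without line 8 and -0.58 with the 75th-percentile filter), the rise being Egr1 and the falls Ier3, Dusp1 and Hmox1. Hmox1, heme oxygenase, fell by 1.20 ± 0.25 (adjusted p 0.0065). The list mean lay between 7.74 and 8.51 with ITD and was 8.35 and 8.36 with wild-type FLT3, and the part of handling in the differences was not tested. Nkg7 (adjusted p 0.222 and 0.223) and Hmox1 (0.131 and 0.082) were not called without the first or the second wild-type array.

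Several of the largest differences fell outside the lists. Ankrd22, an ankyrin repeat gene, read 5.80 to 7.47 on the ITD arrays (median 6.02) and 9.90 and 9.76 with wild-type FLT3. It fell by 3.60 ± 0.30 (12.2-fold, adjusted p 5.36e-06) in all 11 probe sets. Hcar2, the niacin and ketone body receptor, read 5.61 to 6.84 (median 6.23) against 8.61 and 8.66 and fell by 2.47 ± 0.22 (adjusted p 7.92e-06). C3, complement component 3, read 6.54 to 9.22 (median 8.51) against 10.80 and 10.72 and fell by 2.49 ± 0.45 (adjusted p 0.00286), with all 43 probe sets separating the groups. For these 3 genes the ITD arrays were the lowest of the 17.

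Cp, ceruloplasmin, the copper-carrying ferroxidase, read 4.04 to 7.35 (median 4.75) against 8.50 and 8.32 and fell by 3.21 ± 0.61 (adjusted p 0.00374). Parental cells averaged 3.98 for Cp. Tespa1, a thymocyte signalling gene, fell by 2.97 ± 0.44 (adjusted p 0.000492) and Ifitm6 fell by 2.53 ± 0.48 (adjusted p 0.00388). Among rises, Abca2, a lipid transporter, rose by 1.97 ± 0.28 (adjusted p 0.000399), with 56 of 57 probe sets separating the groups, and Trpm2, an oxidant-gated calcium channel, by 1.96 ± 0.30 (adjusted p 0.000806). Hyal3, a hyaluronidase, rose by 2.01 ± 0.29 and Cyp2b10, a cytochrome P450, by 1.97 ± 0.27 (adjusted p 0.000389 and 0.000277). C3, Cp and Ifitm6 were not called when either wild-type array was left out (adjusted p 0.0633 to 0.0855).

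The ITD lines were not equally far from the wild-type arrays. Over the 292 called genes of at least 2-fold difference, line 7 covered a median of 71.7% of the mean ITD difference, 60.9% over the rises and 77.8% over the falls. Line 5 covered 90.0%, and the other 7 lines 101% to 111%. Line 7 was the ITD line nearest to the wild-type mean in 138 of the 292 genes and line 5 in 49. These genes were chosen for the mean difference that includes line 7, and with 1 array for each mutant no line was tested.

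**Figure D4:**
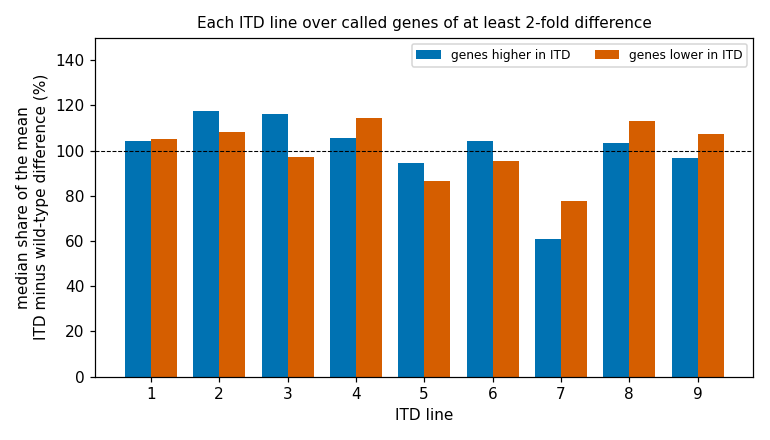
Median share of the mean ITD minus wild-type difference, in percent, reached by each ITD line over the 133 higher (blue) and 159 lower (orange) called genes of at least 2-fold difference. The dashed line marks the mean difference itself. Line 7 reaches 60.9% and 77.8%, the lowest of the 9 lines.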

How the data were processed

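RNA of 17 cultures was hybridised to exon arrays. The deposited values are log2 signals, 1 per probe set, which the submitters' processing notes credit to RMA in Expression Console 1.1 of Affymetrix. RMA corrects background, equalises the arrays and combines the probes of a set. The genome build of the annotation is not given in the sources used here.

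Of 1256831 probe sets, 318760 had 1 gene symbol in the platform annotation, 6684 had several and 931387 had none, and those with 1 were used. Of 22296 symbols 18006 were current in the RefSeq table, 4227 were updated, and 50 ambiguous and 13 unmatched ones were kept as given. Probe sets with a mean over 17 arrays above 4.599, the median of all probe set means, were kept (237584), and their mean gave 20227 gene values, 1987 of them from 1 probe set. A mean of log2 signals understates a difference that 1 exon carries.

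The means of 5 groups were fitted gene by gene in limma 3.58.1 (R 4.3.3; lmFit and eBayes with trend, two-sided, 12 residual and 4.49 prior degrees of freedom), and p-values were adjusted by Benjamini-Hochberg over all genes. All groups shared 1 spread, to which the 9 different mutants contributed most. The procedure was tested on simulated data with independent normal noise and 1 spread per gene. That test does not cover wild-type arrays that are not independent or groups of unequal spread. Groups came from sample titles.

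Text names Flt3, the 20 largest rises and 20 largest falls among called genes without overlap (predicted gene models passed over), up to 6 called members per direction of each of 30 gene lists by size, and the first 3 members of each list. The comparison, the members and the lists were chosen with earlier results of these data known. A few other list members are named to show a paralog or partner, after their values were seen. Alternatives changed the arrays fitted, normalization, filter, probe set summary, variance model and unit of replication, and left out each array.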

Additional observations from a re-analysis of the deposited data

Results flagged for a closer look

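In 26 of the 185 named genes, 1 ITD line stood apart from the other 8 by Dixon's test, which by chance marks about 1 in 20 groups, and 15 of the 26 were values of line 7. Line 7 was the lowest ITD line for Abca2 (9.43), Cblb (6.90), Ccna2 (9.87), Ccnd3 (7.86), Ccne2 (7.16), Gab3 (6.59), Gata1 (7.55), Hyal3 (7.44) and Klf1 (6.30). It was the highest for Ankrd22 (7.47), Ccl4 (7.07), Cd74 (9.95), Cstb (10.40), Dusp2 (10.04) and Thbs1 (6.96). Line 4 was the lowest for Adgre1 (7.19), Ccnd1 (5.47), Cish (8.09), Pilrb1 (7.07) and Trem1 (4.40). Line 5 was the lowest for Hspa1a (7.19) and Prg2 (7.96) and the highest for Tespa1 (7.45). Chil1 was highest in line 6 (7.47), H2-Ab1 highest in line 1 (7.04) and Mcl1 lowest in line 9 (11.06).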

How the results depend on the processing

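No paired analysis was possible because the ITD lines carry no replicate numbers that they share with the wild-type arrays. The direction of the 137 called named genes stayed as reported under each alternative that gave them a value. Of the 48 named genes that were not called, 15 turned sign under at least 1 alternative. Where groups do not overlap, as in 1449 of the 1559 called genes, leaving out an array cannot turn the sign. Changing the variance model or the other groups in the fit keeps the difference itself. The steady direction therefore follows in part from how the genes were chosen. Counts of calls did not stay as reported. A fit of the 9 ITD and 2 wild-type arrays alone called 843 genes, 345 higher and 498 lower, and a fit with each line counted once called 49, 20 higher and 29 lower. Leaving out 1 array at a time gave between 281 and 2463 called genes, between 89 and 1219 higher and between 163 and 1244 lower. The lowest totals came without a wild-type array, where the lone other array is assumed to vary like the other groups, and 202 of the 1559 genes were called in both of those fits. Of the 1559 genes, 1195 were called in all 9 fits that left out an ITD line. Other settings (normalization, centring, filter, probe set summary, variance model, no ligand arrays) gave between 1211 and 1869 calls. With each line counted once, 21 of the named called genes passed: Angpt1, Ankrd22, C5ar1, Ccl5, Ccn3, Ccr1, Cd14, Cd9, Clec4a4, Csta3, Egr1, Epx, Gata2, Hcar2, Klf1, Ltc4s, P2ry13, Prss34, Tnf, Tnfsf9 and Trem1. The mean of 8 called falls with ITD, and of 19 called rises with wild-type FLT3, lay under 4.599, where array background limits the size of a difference.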
